A study of Mus musculus with 63 samples.

Results

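The 10 transcripts described here encode effectors of ovulation: Ptgs2, Areg, Ereg, Btc, Has2, Tnfaip6, Adamts1, Timp1, Edn2 and Runx2. They were taken by gene name from the ovary expression table of a mouse stress study, and all 10 were found among its 34745 genes. All 10 also passed the filter on low counts, which kept 17766 genes for testing. The study sequenced RNA of whole ovaries from female C57BL/6 mice of 2 or 6 months, unstressed or after 8 or 12 weeks of chronic unpredictable mild stress (CUMS, a rotating schedule of mild stressors). Each combination of age and duration is called a set and named as in the labels: 2M-8W and 2M-12W for the younger mice, 6M-8W and 6M-12W for the older. Each set held unstressed controls and stressed mice, with 4 ovary libraries a group except 3 for the 6M-12W controls, so 15 control and 16 stressed ovaries. No genetic change or drug is named for any group. The stage of the estrous cycle is not given, nor whether the age is that at the start or the end of the schedule. The labels do not say that the libraries of a group came from separate animals, so the p-values measure the spread between these samples.

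In the textbook account, the mid-cycle surge of luteinizing hormone (LH) acts on the granulosa cells of the large follicle, which then release EGF-like growth factors. These factors act on the cumulus cells around the oocyte, which make prostaglandins and a hyaluronan-rich matrix, while proteases and their inhibitors remodel the follicle wall until it ruptures. Several of the transcripts, though not all, are induced for hours only, so their level in a whole ovary can depend on how near to ovulation it was taken. In bulk RNA, fewer cells of a kind and less RNA per cell cannot be told apart.

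The 3 EGF-like ligand genes lie on chromosome 5 of build GRCm38. Ereg spans chr5:91074622-91093646 on the forward strand, Areg follows at chr5:91139599-91148432, 45953 bp on, and Btc lies 208829 bp further at chr5:91357261-91402994 on the reverse strand. Ptgs2 is at chr1:150100031-150108227, Tnfaip6 at chr2:52038009-52056686, Edn2 at chr4:120161206-120167360 and Timp1 at chrX:20870166-20874735, all on the forward strand. Has2 is at chr15:56665627-56694539, Adamts1 at chr16:85793827-85803113 and Runx2 at chr17:44495987-44814797, all on the reverse strand. All 10 are protein coding and have the same positions in GENCODE M21.

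Promoter sequences are shown for 3 members of different roles that were lower in stressed ovaries (a prostaglandin enzyme, a growth factor and a protease) and for Btc, the neighbour of Areg that did not pass the test. Each line gives the 250 bases before the gene's start from the RefSeq table of GRCm38.p6, read 5′ to 3′ on the gene's strand. Capitals mark matches to the CRE (TGACGTCA), the CRE half-site (TGACG), the C/EBP motif (TTGCNNAA), the E-box (CACGTG), the AP-1 motif (TGANTCA) and the RUNX motif (TGTGGT), all searched on both strands. The half-site is contained in the CRE. The lines cover chr1:150099781-150100030 for Ptgs2 (forward), chr5:91139349-91139598 for Areg (forward), chr5:91402995-91403244 for Btc (reverse) and chr16:85803114-85803363 for Adamts1 (reverse).
Ptgs2: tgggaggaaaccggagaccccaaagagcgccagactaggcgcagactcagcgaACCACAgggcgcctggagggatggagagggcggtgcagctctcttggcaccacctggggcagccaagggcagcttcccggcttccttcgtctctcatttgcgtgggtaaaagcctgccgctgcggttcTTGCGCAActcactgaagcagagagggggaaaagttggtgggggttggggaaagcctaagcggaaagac
Areg: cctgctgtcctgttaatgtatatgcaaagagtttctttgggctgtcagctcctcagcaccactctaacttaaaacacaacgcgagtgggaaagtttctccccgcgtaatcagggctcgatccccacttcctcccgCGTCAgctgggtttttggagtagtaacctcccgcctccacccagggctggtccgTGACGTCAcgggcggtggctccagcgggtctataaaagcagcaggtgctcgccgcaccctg
Btc: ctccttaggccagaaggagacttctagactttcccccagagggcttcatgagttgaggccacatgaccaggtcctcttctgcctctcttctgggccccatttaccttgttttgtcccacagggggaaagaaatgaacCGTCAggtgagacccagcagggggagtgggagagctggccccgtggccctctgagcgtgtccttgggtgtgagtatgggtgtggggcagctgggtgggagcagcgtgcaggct
Adamts1: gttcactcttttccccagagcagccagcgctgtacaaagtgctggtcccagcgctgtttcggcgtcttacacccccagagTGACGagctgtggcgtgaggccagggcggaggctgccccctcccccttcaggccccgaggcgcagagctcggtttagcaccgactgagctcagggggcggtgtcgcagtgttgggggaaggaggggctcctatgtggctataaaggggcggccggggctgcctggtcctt
In Areg the full CRE lies at positions -61 to -54 from the start and a separate half-site at -115 to -111. The Ptgs2 window holds a C/EBP match at -69 to -62 and a RUNX match, on the other strand, at -197 to -192. Adamts1 has a half-site at -170 to -166, and so has Btc at -113 to -109. Of 32851 mouse promoter windows of the same length in the table, 1.55% held the CRE, 17.8% the half-site, 9.56% the C/EBP motif, 14.0% the RUNX motif, 6.75% the AP-1 motif and 6.02% the E-box. Of the 8 members matched in the table, 1 held the CRE, 4 the half-site, 2 the C/EBP motif, 3 the RUNX motif, 1 the AP-1 motif and 0 the E-box. Ereg and Has2 were not matched. A match says only that these letters stand in the window.

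The libraries held 12536371 to 28777668 counts, and mitochondrial transcripts made up 3.86% to 7.11% of them. Levels below are CPM, counts scaled to the library total and corrected with TMM factors, and folds are log2 of stressed over control from edgeR with their standard error. A member is called past the test at a Benjamini-Hochberg adjusted p under 0.05 over all 17766 genes.

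As the mean of the 4 sets, 8 of 10 members were lower in stressed ovaries: Ptgs2, Areg, Ereg, Tnfaip6, Adamts1, Timp1, Edn2 and Runx2. The background is that 11.5% of all genes tested were called lower in that comparison. The folds of all 10 were below 0, with a median of -1.67 beside 0.0075 over all genes. Has2, with -0.57 ± 0.26 (adjusted p = 0.122), and Btc, with -0.10 ± 0.14 (adjusted p = 0.636), did not pass. The calls of Ptgs2, Ereg, Tnfaip6, Adamts1, Timp1, Edn2 and Runx2 held in each of 36 alternatives, which left out each library in turn, left out the 2M-12W controls 2 and 4 together, or changed the tool, scaling, filter or block. That of Areg held in 30 of them.

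Within single sets the counts differed. In 2M-8W 1 member was called lower (Timp1), where 2.31% of all genes were. The 2M-12W set had 7 (Ptgs2, Areg, Ereg, Tnfaip6, Adamts1, Timp1 and Edn2), against 4.15% of genes. In 6M-12W there were 4 (Tnfaip6, Timp1, Edn2 and Runx2), against 6.26% of genes. No member was called in 6M-8W, where 0.563% of genes were lower: edgeR gave 0, 2 had an unadjusted p under 0.05 (Edn2 and Adamts1), and DESeq2 called 1 (Adamts1). No member was called higher in any set.

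The 7 calls in 2M-12W were lost without a pair of control ovaries. Controls 2 and 4 of that set ranked among the 3 highest of all 31 ovaries for 8 and 7 members. Without this pair, chosen after their values were seen, 0 members passed in 2M-12W by edgeR, and 5 had an unadjusted p under 0.05 (Ptgs2, Tnfaip6, Timp1, Edn2 and Runx2). Over all genes, 31 were then called in that set, beside 1197 with all libraries. All member folds but that of Btc stayed below 0. Tnfaip6 had -2.05 ± 0.48 (adjusted p = 0.0735), Timp1 -1.60 ± 0.41 (adjusted p = 0.0959) and Edn2 -3.57 ± 1.01 (adjusted p = 0.132). Ptgs2 moved from -4.73 to -2.19 ± 0.69 (adjusted p = 0.164). The other 3 of the 7 had smaller folds without the pair. Adamts1 moved from -2.59 to -0.84 ± 0.42 (adjusted p = 0.428), Areg from -3.50 to -0.89 ± 0.96 (adjusted p = 0.779) and Ereg from -3.76 to -0.61 ± 0.38 (adjusted p = 0.559). With only the groups of 2M-12W in the fit, edgeR called 0 of the 9 members tested and 0 of all genes. Areg did not pass the filter there, and the other 6 had an unadjusted p under 0.05 but adjusted p from 0.0674 (Timp1) to 0.106 (Ereg). Without the pair, 3 members passed in 2M-8W (Ereg, Adamts1 and Timp1) and 1 in 6M-8W (Adamts1). Over all genes, 347 were then called in 6M-8W, beside 199 with all libraries. Without the pair the mean of the 4 sets kept 7 of its 8 member calls, all but Areg. Over all genes it called 2332, beside 3615 with all libraries.

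The libraries were also compared without a model. In a set, all stressed ovaries lay below all controls for 4 of 10 members in 2M-8W, where 4.23% of all genes tested were so separated. For 2M-12W it was 2 members beside 5.74% of genes, for 6M-8W 2 beside 5.57%, and for 6M-12W 4 beside 16.1%. Adamts1 was so separated in 3 sets (all but 6M-12W), Timp1 in 3 (all but 6M-8W), Ereg and Tnfaip6 in 2 each (2M-8W and 6M-12W), Areg in 6M-8W and Runx2 in 6M-12W. Each stressed ovary was below all controls of its set for between 3 members (6M-8W stressed ovary 3) and 9 members (6M-12W stressed ovaries 3 and 4). The share of all genes for single ovaries was not computed. With only 3 controls in 6M-12W, a lone ovary falls below all of them more easily by rank alone. Below the mean of their set's controls lay all 16 stressed ovaries for Ereg, Tnfaip6, Adamts1 and Edn2, and 15 for Ptgs2 and Timp1. It was 14 for Areg, 13 for Runx2 and 11 each for Btc and Has2. The share of all genes was not computed for these counts either. In 2M-12W, controls 2 and 4 raise that mean for several members, as for Ereg to 18.5 CPM beside a median of 12.3 CPM.

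**Figure D1:**
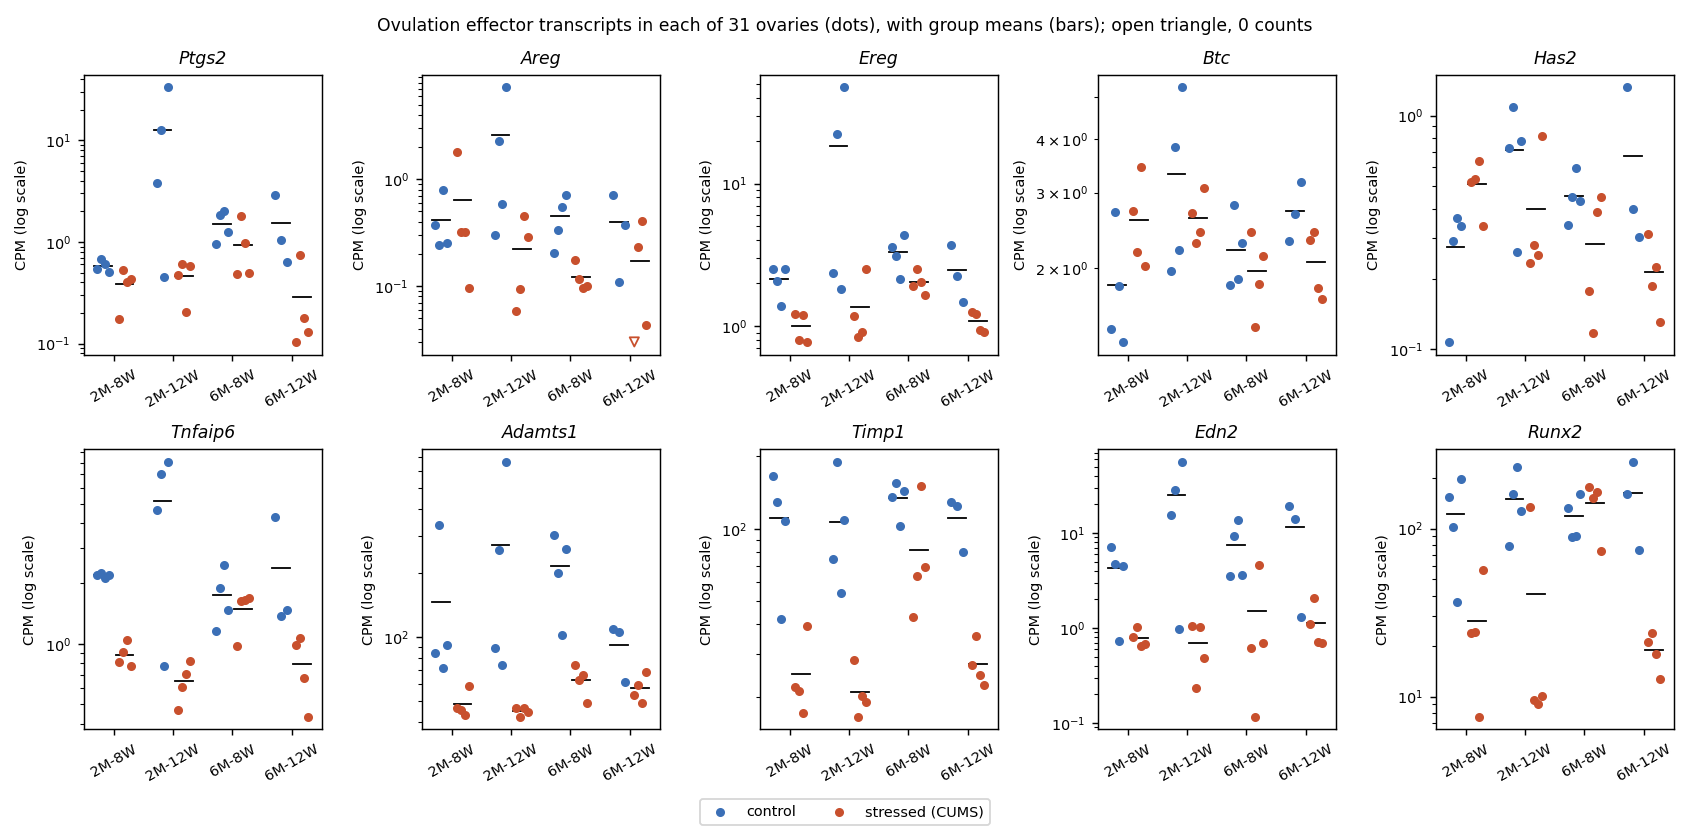
Level of each of the 10 members in every ovary (dots, CPM on a log axis) by set, controls in blue and stressed ovaries in red, with group means as bars; the open triangle stands for the 1 library with 0 counts of Areg. In the 2M-12W controls, Ptgs2 ranged from 0.454 to 33.3 CPM, while Adamts1 in the 16 stressed ovaries stayed between 42.4 and 74.3 CPM.

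Ptgs2 encodes the inducible prostaglandin synthase of the cumulus and granulosa cells. In 2M-12W it was at 3.78, 12.6, 0.454 and 33.3 CPM in the controls and at 0.469, 0.607, 0.203 and 0.577 CPM in the stressed ovaries. Control 3 thus lay within the stressed range and the other 3 controls above it. In 6M-12W the controls had 2.88, 1.05 and 0.641 CPM and the stressed ovaries 0.104, 0.747, 0.180 and 0.130 CPM, overlapping through stressed ovary 2. Levels in 2M-8W were low in both groups, 0.536, 0.675, 0.606 and 0.506 CPM in controls and 0.174, 0.533, 0.400 and 0.435 CPM in stressed ovaries. In 6M-8W the controls had 0.949, 1.85, 2.03 and 1.24 CPM and the stressed ovaries 0.486, 1.81, 0.969 and 0.498 CPM. The stressed ovary was below its control mean in 15 of 16 cases. The fold was -4.73 ± 0.80 in 2M-12W (adjusted p = 0.00131), -2.35 ± 0.87 in 6M-12W (adjusted p = 0.0748), -0.57 ± 0.88 in 2M-8W (adjusted p = 0.743) and -0.72 ± 0.74 in 6M-8W (adjusted p = 0.695). As the mean of the 4 sets it was -2.09 ± 0.41 (adjusted p = 0.000741). The 6M-12W fold passed in only 6 of 37 alternatives, which for a single set include the fit of its own groups. The highest adjusted p among the 37 was 0.366. Among the 6 were a replicate block (-2.68, adjusted p = 0.0485), DESeq2 (-2.39, adjusted p = 0.0272) and the fit without 2M-12W controls 2 and 4 (-2.34, adjusted p = 0.0234).

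Among 14 other genes of prostaglandin synthesis, receptors and clearance, 3 were lower and 1 higher in the mean of the 4 sets, with a median fold of -0.01. The shares of all genes tested were 11.5% lower and 8.86% higher. Ptgs1, the constitutive synthase, fell by 0.98 on the log2 scale (SE 0.21, adjusted p = 0.00160), and Ptgds, a prostaglandin D synthase, fell by 0.85 (SE 0.19, adjusted p = 0.00222). Ptgfr, the luteal receptor of prostaglandin F2α, fell by 1.13 (SE 0.40, adjusted p = 0.0457). In 6M-8W its values went the other way without overlap, 415 to 735 CPM in stressed ovaries and 180.5 to 363 CPM in controls, with a fold of 1.11 ± 0.79 (adjusted p = 0.533). Ptgds there had 7.51 to 15.4 CPM in stressed ovaries and 4.27 to 11.7 CPM in controls (0.61 ± 0.37, adjusted p = 0.445). The prostaglandin-degrading enzyme Hpgd rose by 0.33 (SE 0.12, adjusted p = 0.0450). The calls of Ptgfr and Hpgd held in 12 and 17 of 36 alternatives, and those of Ptgs1 and Ptgds in all 36.

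Areg, amphiregulin, is an EGF-like ligand that granulosa cells release after the surge. It was at 0.301, 2.28, 0.583 and 7.28 CPM in the 2M-12W controls and at 0.0586, 0.0933, 0.457 and 0.289 CPM in the stressed ovaries. Only controls 2 and 4 stood above both groups by a wide margin. The 6M-8W controls had 0.203, 0.336, 0.545 and 0.715 CPM and the stressed ovaries 0.177, 0.117, 0.0969 and 0.0995 CPM, without overlap but on 2 to 4 counts a stressed library. In 6M-12W the controls had 0.709, 0.109 and 0.377 CPM and the stressed ovaries 0, 0.234, 0.405 and 0.0434 CPM. The library with 0 counts could have held up to 0.156 CPM (3 counts of its total). The 2M-8W controls had 0.375, 0.241, 0.787 and 0.253 CPM and the stressed ovaries 1.80, 0.320, 0.320 and 0.0966 CPM, where stressed ovary 1 was above all controls. That ovary also held the highest summed level of 9 oviduct and ciliated epithelium markers, 2233 CPM, beside 27.4 to 385 CPM in the other 30; its Ovgp1, the oviductal glycoprotein, was at 1888 CPM. Their part in its Areg level was not tested. The fold of Areg in 2M-8W was 0.64 ± 0.89 (adjusted p = 0.709), and -0.74 (adjusted p = 0.731) without that ovary. It was -3.50 ± 0.90 in 2M-12W (adjusted p = 0.0185), -1.84 ± 1.04 in 6M-8W (adjusted p = 0.405) and -1.14 ± 1.03 in 6M-12W (adjusted p = 0.517). The 2M-12W call was lost without control 4 (-2.18, adjusted p = 0.149) or without stressed ovary 2 (-3.23, adjusted p = 0.0614).

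For Areg the mean of the 4 sets was -1.46 ± 0.48 (adjusted p = 0.0331), and 14 of 16 stressed ovaries lay below their control mean. This call was lost when any of 5 single libraries was left out: 2M-8W control 3 (adjusted p = 0.0553), 2M-12W control 4 (0.0708), 6M-8W control 4 (0.0562), 6M-12W control 1 (0.0765) or 6M-12W stressed ovary 4 (0.0523). Without 2M-12W controls 2 and 4 it was -0.81 (adjusted p = 0.224).

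Ereg, epiregulin, is the EGF-like ligand next to Areg on the chromosome. The 2M-12W controls had 2.36, 22.2, 1.82 and 47.5 CPM and the stressed ovaries 1.17, 0.840, 0.913 and 2.50 CPM. Controls 2 and 4 were again far above the rest, and stressed ovary 4 reached the level of controls 1 and 3. In 2M-8W the controls had 2.52, 2.07, 1.39 and 2.53 CPM and the stressed ovaries 1.22, 0.799, 1.20 and 0.773 CPM. The 6M-12W controls had 3.73, 2.24 and 1.47 CPM and the stressed ovaries 1.24, 1.21, 0.944 and 0.911 CPM. Neither of these sets overlapped. In 6M-8W the controls had 3.59, 3.08, 2.13 and 4.34 CPM and the stressed ovaries 1.90, 2.51, 2.03 and 1.64 CPM. All 16 stressed ovaries were below their control mean. The fold was -3.76 ± 0.65 in 2M-12W (adjusted p = 0.00143), -1.11 ± 0.67 in 2M-8W (adjusted p = 0.322), -1.19 ± 0.68 in 6M-12W (adjusted p = 0.262) and -0.70 ± 0.61 in 6M-8W (adjusted p = 0.629). Its mean over the sets was -1.69 ± 0.32 (adjusted p = 0.000599). Leaving out 2M-12W controls 2 and 4 moved the mean to -0.90 ± 0.17 (adjusted p = 0.00110) and the 2M-12W fold to -0.61 ± 0.38 (adjusted p = 0.559).

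Btc, betacellulin, is the third ligand of this cluster and showed the smallest fold of the members. The controls ranged from 1.35 to 5.27 CPM with a median of 2.29, and the stressed ovaries from 1.46 to 3.44 CPM with a median of 2.31. Its highest level, as for Areg and Ereg, was in 2M-12W control 4. In 2M-8W the controls had 1.45, 2.70, 1.82 and 1.35 CPM and the stressed ovaries 2.73, 2.18, 3.44 and 2.03 CPM. The fold was 0.49 ± 0.27 there (adjusted p = 0.275), -0.34 ± 0.26 in 2M-12W, -0.40 ± 0.28 in 6M-12W and -0.16 ± 0.27 in 6M-8W, with no set past the test.

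The receptors and other EGF-like ligands moved little. Of 8 tested in a list of 10, 0 were lower and 1 was higher in the mean of the 4 sets, with a median fold of 0.05. Beside this, 11.5% of all genes tested were lower and 8.86% higher. Nrg1, a neuregulin ligand, rose by 0.42 (SE 0.13, adjusted p = 0.0191). Hbegf had 0.28 ± 0.11 (adjusted p = 0.0731), the co-receptor Erbb2 0.13 ± 0.06 (adjusted p = 0.110) and Tgfa -0.58 ± 0.27 (adjusted p = 0.131).

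Has2 encodes the hyaluronan synthase of the expanding cumulus, and had low counts, 2 to 28 a library. The 6M-12W controls had 1.32, 0.398 and 0.302 CPM and the stressed ovaries 0.311, 0.187, 0.225 and 0.130 CPM. In 2M-12W the controls had 0.730, 1.09, 0.259 and 0.781 CPM and the stressed ovaries 0.234, 0.280, 0.254 and 0.818 CPM. In 2M-8W the order was the other way, with 0.107, 0.289, 0.363 and 0.337 CPM in controls and 0.522, 0.533, 0.640 and 0.338 CPM in stressed ovaries. The 6M-8W controls had 0.339, 0.448, 0.595 and 0.429 CPM and the stressed ovaries 0.177, 0.117, 0.388 and 0.448 CPM. The groups overlapped in every set. The fold was -1.62 ± 0.54 in 6M-12W (adjusted p = 0.0526), -0.85 ± 0.49 in 2M-12W (adjusted p = 0.304), -0.67 ± 0.52 in 6M-8W (adjusted p = 0.579) and 0.85 ± 0.53 in 2M-8W (adjusted p = 0.339). The mean of the 4 sets passed in only 1 of 36 alternatives, that without 2M-12W stressed ovary 4, the highest stressed value (-0.72, adjusted p = 0.0452).

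Tnfaip6 encodes TSG-6, the protein that links hyaluronan to heavy chains in the cumulus matrix. Its 2M-8W controls were alike at 2.20, 2.27, 2.12 and 2.19 CPM, above the stressed ovaries at 0.812, 0.906, 1.04 and 0.773 CPM. In 2M-12W the controls had 4.64, 7.0, 0.778 and 8.06 CPM and the stressed ovaries 0.469, 0.607, 0.710 and 0.818 CPM. Control 3 was again the only control within the stressed range. The 6M-12W controls had 4.30, 1.38 and 1.47 CPM and the stressed ovaries 0.985, 1.07, 0.674 and 0.434 CPM. The 6M-8W groups lay close, at 1.15, 1.91, 2.48 and 1.48 CPM in controls and 0.973, 1.64, 1.65 and 1.69 CPM in stressed ovaries. The fold was -2.96 ± 0.46 in 2M-12W (adjusted p = 0.00103), -1.58 ± 0.47 in 6M-12W (adjusted p = 0.0308), -1.32 ± 0.46 in 2M-8W (adjusted p = 0.0779) and -0.25 ± 0.44 in 6M-8W (adjusted p = 0.837). The mean of the 4 sets was -1.53 ± 0.23 (adjusted p = 5.06e-05), with all 16 stressed ovaries below their control mean. The 6M-12W call was lost without control 1 (-0.84, adjusted p = 0.326), without stressed ovary 3 (-1.53, 0.0731), without stressed ovary 4 (-1.39, 0.0941) or with only the groups of that set in the fit (-1.58, 0.0568). The 2M-12W call was lost with only its own groups (-2.95, adjusted p = 0.0770) and without its controls 2 and 4 (-2.05, adjusted p = 0.0735).

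Of 13 other genes of the cumulus hyaluronan matrix, 11 were tested, 1 was lower and 0 higher as the mean of the 4 sets, with a median fold of 0.05. Among all genes tested, 11.5% were lower and 8.86% higher. The lower gene of the list was Vcan, versican, a proteoglycan that binds hyaluronan, which fell by 0.65 (SE 0.15, adjusted p = 0.00227). The synthase Has3 had 0.25 ± 0.10 (adjusted p = 0.0694), the link protein Hapln3 0.22 ± 0.11 (adjusted p = 0.142) and the heavy chain Itih3 -0.22 ± 0.12 (adjusted p = 0.179).

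Adamts1 encodes a secreted protease that cleaves versican. It was the member with the narrowest range in stressed ovaries, 42.4 to 74.3 CPM over 16 libraries, beside 61.8 to 665 CPM over 15 controls. In 2M-12W the controls had 88.8, 257, 74.4 and 665 CPM and the stressed ovaries 46.6, 42.4, 46.7 and 44.4 CPM. The 2M-8W controls had 84.2, 335, 71.6 and 91.8 CPM and the stressed ovaries 46.5, 45.3, 43.3 and 59.1 CPM. In 6M-8W there were 301, 199.7, 102 and 259 CPM in controls and 74.3, 63.1, 66.6 and 48.9 CPM in stressed ovaries. These 3 sets did not overlap. The 6M-12W controls had 109, 106 and 61.8 CPM and the stressed ovaries 53.3, 59.4, 48.9 and 68.5 CPM, where control 3 lay inside the stressed range. The fold was -2.59 ± 0.52 in 2M-12W (adjusted p = 0.00406), -1.58 ± 0.50 in 2M-8W (adjusted p = 0.0556), -1.77 ± 0.50 in 6M-8W (adjusted p = 0.0733) and -0.68 ± 0.52 in 6M-12W (adjusted p = 0.429). The mean of the 4 sets was -1.66 ± 0.25 (adjusted p = 6.16e-05), and -1.22 ± 0.19 (adjusted p = 0.000170) without 2M-12W controls 2 and 4.

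Timp1 encodes an inhibitor of metalloproteinases that granulosa and luteal cells secrete. It had the smallest p of the members: its fold averaged over the sets was -1.81 ± 0.20 (adjusted p = 1.74e-06). The 2M-8W controls had 166, 129, 42.1 and 108 CPM and the stressed ovaries 22.0, 21.2, 17.1 and 39.2 CPM. In 2M-12W there were 74.7, 189.8, 53.8 and 109 CPM in controls and 28.3, 16.5, 20.1 and 19.0 CPM in stressed ovaries. The 6M-12W controls had 129, 125 and 80.1 CPM and the stressed ovaries 27.0, 35.9, 24.5 and 22.4 CPM. None of these 3 sets overlapped, and each was called: -2.15 ± 0.40 (adjusted p = 0.00939), -2.35 ± 0.40 (adjusted p = 0.00131) and -2.02 ± 0.41 (adjusted p = 0.00376). In 6M-8W the controls had 136, 155, 103 and 144 CPM and the stressed ovaries 43.0, 63.7, 151 and 69.1 CPM, where stressed ovary 3 stood within the controls. The fold there was -0.72 ± 0.38 (adjusted p = 0.368). With only the groups of a set in the fit, the calls in 2M-8W (adjusted p = 0.116) and 2M-12W (adjusted p = 0.0674) were lost, and that in 2M-12W also without its controls 2 and 4 (adjusted p = 0.0959).

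Other proteases and inhibitors of the follicle wall were lower too. Of 16 tested, 10 were lower and 0 higher as the mean of the 4 sets, with a median fold of -0.41. Of all genes tested, 11.5% were lower and 8.86% higher. Plau, the urokinase plasminogen activator, fell by 0.45 (SE 0.06, adjusted p = 1.07e-05). Adamts4, a close relative of Adamts1, fell by 1.41 (SE 0.19, adjusted p = 1.55e-05), Mmp19, a matrix metalloproteinase, by 1.04 (SE 0.16, adjusted p = 5.39e-05) and Mmp9, a gelatinase, by 0.63 (SE 0.10, adjusted p = 0.000111). These 4 calls held in all 36 alternatives.

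Edn2, endothelin 2, is a contractile peptide made by granulosa cells shortly before rupture, and had the largest fold of the members. The 2M-12W controls had 15.3, 28.5, 0.972 and 55.9 CPM and the stressed ovaries 1.05, 0.233, 1.01 and 0.481 CPM. In 6M-12W there were 19.4, 14.2 and 1.32 CPM in controls and 1.09, 2.06, 0.719 and 0.694 CPM in stressed ovaries. The 2M-8W controls had 7.08, 4.72, 0.727 and 4.47 CPM and the stressed ovaries 0.812, 1.01, 0.640 and 0.676 CPM. In each of these sets exactly 1 control, the third, lay within the stressed range. The 6M-8W controls had 3.53, 9.25, 13.8 and 3.57 CPM and the stressed ovaries 0.619, 0.117, 4.55 and 0.697 CPM, where stressed ovary 3 reached the controls. The fold was -5.19 ± 1.01 in 2M-12W (adjusted p = 0.00322), -3.35 ± 0.95 in 6M-12W (adjusted p = 0.0233), -2.42 ± 0.97 in 2M-8W (adjusted p = 0.127) and -2.31 ± 0.89 in 6M-8W (adjusted p = 0.194). The mean was -3.32 ± 0.48 (adjusted p = 2.93e-05), with all 16 stressed ovaries below their control mean. The 6M-12W call was lost without control 1 (-2.76, adjusted p = 0.108), control 2 (-3.16, 0.0828), or stressed ovary 1 (-3.35, 0.0570), 3 (-3.20, 0.0643) or 4 (-3.19, 0.0688). Of 6 other endothelin system genes, 1 was lower and 1 higher in the mean of the 4 sets, where 11.5% and 8.86% of all genes tested were. Ednra, a receptor, fell by 0.20 (SE 0.05, adjusted p = 0.00553) and Edn3, another endothelin, rose by 0.47 (SE 0.09, adjusted p = 0.000401).

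Runx2 encodes a transcription factor of luteinizing granulosa cells and differed from the other members in its pattern. In 6M-12W the controls had 162, 249.7 and 75.1 CPM and the stressed ovaries 21.3, 24.0, 17.8 and 12.8 CPM. The 2M-8W controls had 154, 102, 36.4 and 198 CPM and the stressed ovaries 23.9, 24.3, 7.61 and 56.4 CPM. In 2M-12W there were 79.4, 160.0, 233 and 128 CPM in controls and 134, 9.61, 9.03 and 10.1 CPM in stressed ovaries. Stressed ovary 1 was thus at the control level while the other 3 were the lowest of their set. The 6M-8W stressed ovaries, at 178, 152, 165 and 73.3 CPM, overlapped their controls at 132, 88.7, 90.9 and 161 CPM. The fold was -3.10 ± 0.75 in 6M-12W (adjusted p = 0.00973), -2.11 ± 0.70 in 2M-8W (adjusted p = 0.0651), -1.89 ± 0.69 in 2M-12W (adjusted p = 0.0936) and 0.26 ± 0.66 in 6M-8W (adjusted p = 0.890). The mean was -1.71 ± 0.35 (adjusted p = 0.00103). The 2M-12W fold passed in only 1 of 37 alternatives, that without 2M-12W stressed ovary 1 (-3.95, adjusted p = 0.000489). The 6M-12W fold passed in 36 of 37, all but that without 6M-12W control 2 (-2.62, adjusted p = 0.0645).

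The summed level of 12 luteal markers was also higher in stressed ovaries than in controls, by its group mean, only in 6M-8W of the 4 sets, and no marker was at 0 throughout a group. In 6M-8W it was 11202 to 15002 CPM in stressed ovaries and 8783 to 11297 CPM in controls. In 2M-8W, 2M-12W and 6M-12W the stressed ovaries had 7067 to 11996, 7668 to 11906 and 7626 to 9075 CPM, beside 9989 to 13586, 8331 to 17816 and 8813 to 16131 CPM in controls. Averaged over the sets, 6 of these 12 were lower and none higher, where 11.5% of all genes tested were lower and 8.86% higher. Among the 6 were Cited4 (-1.07 ± 0.21, adjusted p = 0.000822), Prlr (-0.62 ± 0.14, adjusted p = 0.00191), Lhcgr, the LH receptor (-0.66 ± 0.19, adjusted p = 0.0137) and Sfrp4 (-1.39 ± 0.42, adjusted p = 0.0196). The part of luteal tissue in the Runx2 and Timp1 levels was not tested. Of the 3 other RUNX family genes, Runx1 fell by 0.84 (SE 0.16, adjusted p = 0.000518), while the partner Cbfb had 0.11 ± 0.05 (adjusted p = 0.0998) and Runx3 -0.29 ± 0.22 (adjusted p = 0.361).

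**Figure D2:**
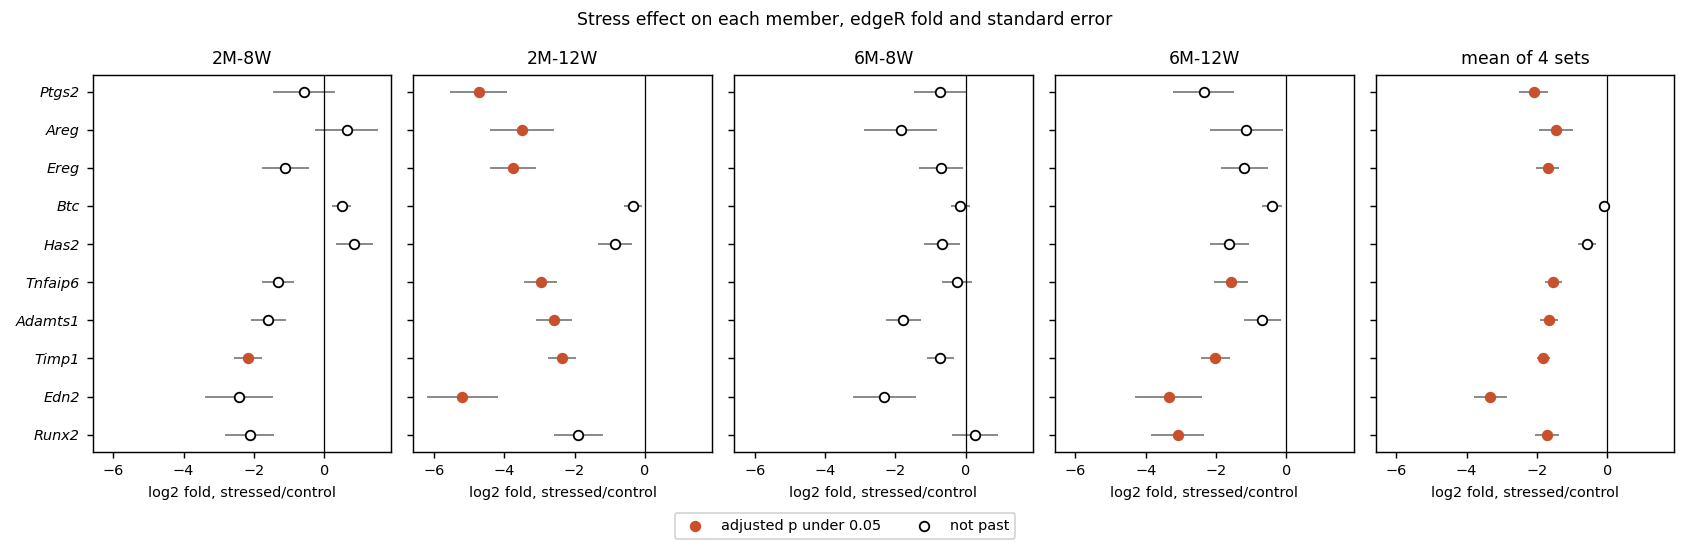
Stress effect on each member (log2 fold of stressed over control, points, with the standard error as bars) in each set and as the mean of the 4 sets; filled points have an adjusted p under 0.05. All 10 folds in the mean are below 0, and Runx2 in 6M-8W is at 0.26.

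Between sets, the size of the stress effect was compared directly. For the difference between ages, 6 months minus 2 months, edgeR called 0 members and 0% of all genes; 4 members had an unadjusted p under 0.05 (Ereg, Tnfaip6, Has2 and Timp1), and DESeq2 called 0 members. For the difference between durations, 12 weeks minus 8 weeks, 1 member was called, where 4.71% of genes were. That share came from 836 genes, which ranged from 299 without 6M-12W control 1 to 1597 without 2M-8W stressed ovary 2. The member was Ptgs2 with -2.89 ± 0.83 (adjusted p = 0.0440): its fold was lower after 12 weeks. That call held in 12 of 36 alternatives, and the fold was -1.62 (adjusted p = 0.160) without 2M-12W controls 2 and 4, -2.32 (0.0692) without control 4 alone and -2.47 (0.104) without 6M-12W control 1. Of the 10 members, 9 had a duration difference below 0, with a median of -1.53 beside -0.01 over all genes. Without 2M-12W controls 2 and 4, Ereg had 0.0085 ± 0.35 and Adamts1 0.92 ± 0.38, and the other members stayed below 0. The lowest adjusted p of a member was then 0.160 (Ptgs2, edgeR). Between 6-month and 2-month controls, 0 members were called by edgeR and by DESeq2, where 0.287% of genes were called by edgeR; Ereg and Tnfaip6 had an unadjusted p under 0.05, 2 of 10.

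Levels of different genes are compared per kilobase, from the deposited FPKM values. In controls the median was highest for Timp1 at 86.6 FPKM, followed by Adamts1 at 16.2, Runx2 at 7.80, Edn2 at 4.72 and Tnfaip6 at 1.24 FPKM. The other medians lay under 1 FPKM: Ereg 0.594, Areg 0.312, Btc 0.296, Ptgs2 0.215 and Has2 0.0902 FPKM. The ranges of neighbours in this order overlapped among controls. In stressed ovaries the medians were 18.8 FPKM for Timp1, 7.80 for Adamts1, 1.42 for Runx2, 0.510 for Tnfaip6 and 0.491 FPKM for Edn2. Btc at 0.310 FPKM then stood above Ereg at 0.295, Areg at 0.118, Ptgs2 at 0.102 and Has2 at 0.0718 FPKM.

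**Figure D3:**
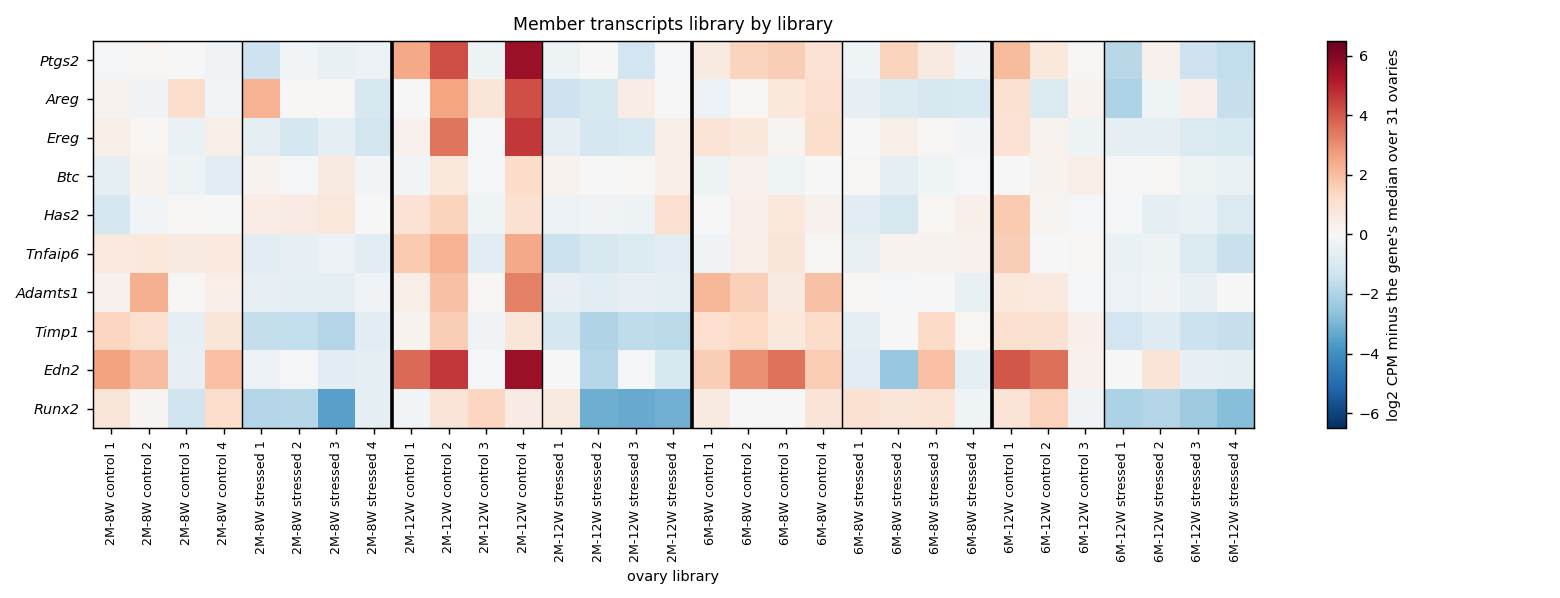
Log2 CPM of each member minus its median over 31 ovaries, one column per library; thick lines part the sets and thin lines part controls from stressed ovaries. The columns of 2M-12W controls 2 and 4 are high for Ptgs2, Areg, Ereg, Tnfaip6 and Edn2, while 2M-12W control 3 ranks 7 to 25 of 31 for them.

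By the SD pooled over the sets, the controls were spread more widely than the stressed ovaries for 9 of 10 members. The pooled SD of log2 CPM within groups was 1.02 in controls and 0.20 in stressed ovaries for Adamts1, 1.27 and 0.41 for Ereg, and 0.89 and 0.36 for Tnfaip6. It was 1.42 and 0.73 for Ptgs2, 1.81 and 1.07 for Edn2, and 1.17 and 0.98 for Areg. Btc (0.44 and 0.27), Has2 (0.65 and 0.53) and Timp1 (0.64 and 0.51) followed. Runx2 was the exception, with 0.79 in controls and 1.17 in stressed ovaries. Over all genes tested the medians were 0.23 and 0.21, and 53.8% of genes had the smaller SD in stressed ovaries. The control SD of Edn2 was at the 99.8th percentile of all genes, that of Ptgs2 at 99.4, Ereg at 99.1 and Areg at 98.7. The stressed SD of Adamts1 was at the 46.1st percentile and that of Runx2 at 97.6. The pooled order did not hold set by set. By the coefficient of variation of CPM, only Ereg and Adamts1 were more spread in controls in every set. For Ptgs2 it was larger in controls only in 2M-12W, at 118% beside 39.6% in stressed ovaries. In its other sets the stressed ovaries had the larger value, as in 6M-8W with 66.2% beside 33.5% in controls.

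The spread of the controls was smaller without 2M-12W controls 2 and 4. The control SD of Ereg was then 0.45, of Areg 0.72, of Ptgs2 0.87, of Adamts1 0.75 and of Edn2 1.65, and 8 of 10 members kept the larger SD in controls. Areg and Runx2 did not.

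The test of the spread, limma on absolute deviations, called 2 members with smaller deviations in stressed ovaries, where 0.49% of all genes were called in either direction. They were Adamts1 (-0.65 ± 0.13, adjusted p = 0.0273) and Ereg (-0.54 ± 0.11, adjusted p = 0.0273). This test made too many false calls on simulated data. Limma on the log2 SD of each group, which did not, called 0 members and 0 genes, with an unadjusted p under 0.05 for 2 members, Adamts1 (0.000743) and Ereg (0.0493). Without 2M-12W controls 2 and 4, the first test called Edn2 and Tnfaip6 instead (adjusted p = 0.0492 and 0.00186). The difference in spread is therefore given as a description. For low members part of the spread is counting error: the coefficient of variation from counting alone was 13.8% to 63.2% for Areg and 25.3% to 47.1% for Has2, and 1.35% to 3.42% for Adamts1.

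**Figure D4:**
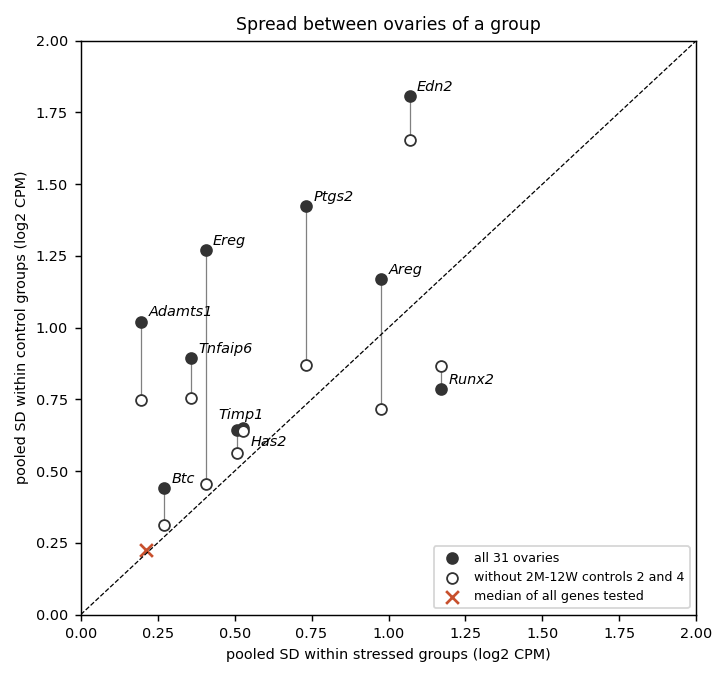
Pooled SD of log2 CPM within stressed groups (x) and within control groups (y) for each member; filled points use all 31 ovaries and open points leave out 2M-12W controls 2 and 4, and the cross is the median of all genes tested. Points above the dashed line of equal SD are wider in controls, as for Adamts1 at 1.02 against 0.20; Runx2 lies below it.

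The members varied together among the ovaries of a group. Over the 45 pairs of members, with group means removed, 39 had a Pearson's r above 0 across the 31 ovaries, with a median of 0.42. In the 15 controls alone the median r was 0.52 and 23 pairs were above 0.5. In the 16 stressed ovaries the median was 0.12 and 4 pairs were above 0.5. As background, each member's median r to all genes tested lay between -0.01 and 0.0026 over the 31 ovaries, and 1.18% (Areg) to 5.58% (Runx2) of genes had an r above 0.5 to it. Without 2M-12W controls 2 and 4 the median over the remaining ovaries was 0.17. Whether the correlations differed between controls and stressed ovaries was not tested.

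By permutation of libraries within groups, two-sided and adjusted over the 45 pairs, 4 pairs passed by Pearson's r and the same 4 by Spearman's rho. Tnfaip6 and Has2, partners in the cumulus matrix, had r = 0.71 (permutation p = 0.000200, adjusted p = 0.00900) and rho = 0.72 (permutation p = 0.000130, adjusted p = 0.00585). Their r was 0.70 without the 2 ovaries farthest from the median of Tnfaip6, 0.81 in controls and 0.55 in stressed ovaries. Ptgs2 and Tnfaip6 had r = 0.83 (permutation p = 0.000650, adjusted p = 0.0146) and rho = 0.61 (permutation p = 0.00341, adjusted p = 0.0471). Their r was 0.63 without the 2 farthest ovaries, 0.94 in controls and 0.39 in stressed ovaries. In both pairs r was higher in controls than in stressed ovaries, a difference that was not tested.

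Edn2 and Timp1 had r = 0.69 (permutation p = 0.00104, adjusted p = 0.0156) and rho = 0.69 (permutation p = 0.000440, adjusted p = 0.00990). Their r was 0.72 in controls and 0.67 in stressed ovaries, and 0.65 without the 2 farthest ovaries. Edn2 and Tnfaip6 had r = 0.68 (permutation p = 0.00397, adjusted p = 0.0447) and rho = 0.58 (permutation p = 0.00419, adjusted p = 0.0471), and r = 0.47 without the 2 farthest ovaries. Without 2M-12W controls 2 and 4 only 1 pair passed by Pearson's r.

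The neighbours on chromosome 5 gave values that did not pass. Areg and Ereg had r = 0.60 (permutation p = 0.0556, adjusted p = 0.174) and rho = 0.38 (permutation p = 0.112, adjusted p = 0.241), with 0.76 in controls and 0.24 in stressed ovaries, and 0.41 without the 2 farthest ovaries. Ereg and Btc had r = 0.60 (permutation p = 0.0692, adjusted p = 0.174) and rho = 0.34 (permutation p = 0.155, adjusted p = 0.249), and 0.39 without the 2 farthest. Without 2M-12W controls 2 and 4 these r were 0.12 and 0.08.

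Runx2 stood apart here as well, with a median r of -0.01 to the other members. Its largest r was 0.50 to Timp1 (permutation p = 0.00581, adjusted p = 0.0523; rho = 0.53, permutation p = 0.00701, adjusted p = 0.0561; 0.49 without the 2 farthest ovaries), with 0.53 in controls and 0.52 in stressed ovaries. Its lowest r was -0.31, to Has2 (permutation p = 0.170, adjusted p = 0.277; rho = -0.35, permutation p = 0.0956, adjusted p = 0.241; -0.32 without the 2 farthest ovaries), and its r to Areg and to Tnfaip6 were both -0.24, none past the test. Ereg had the highest median r to the other members, 0.60.

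**Figure D5:**
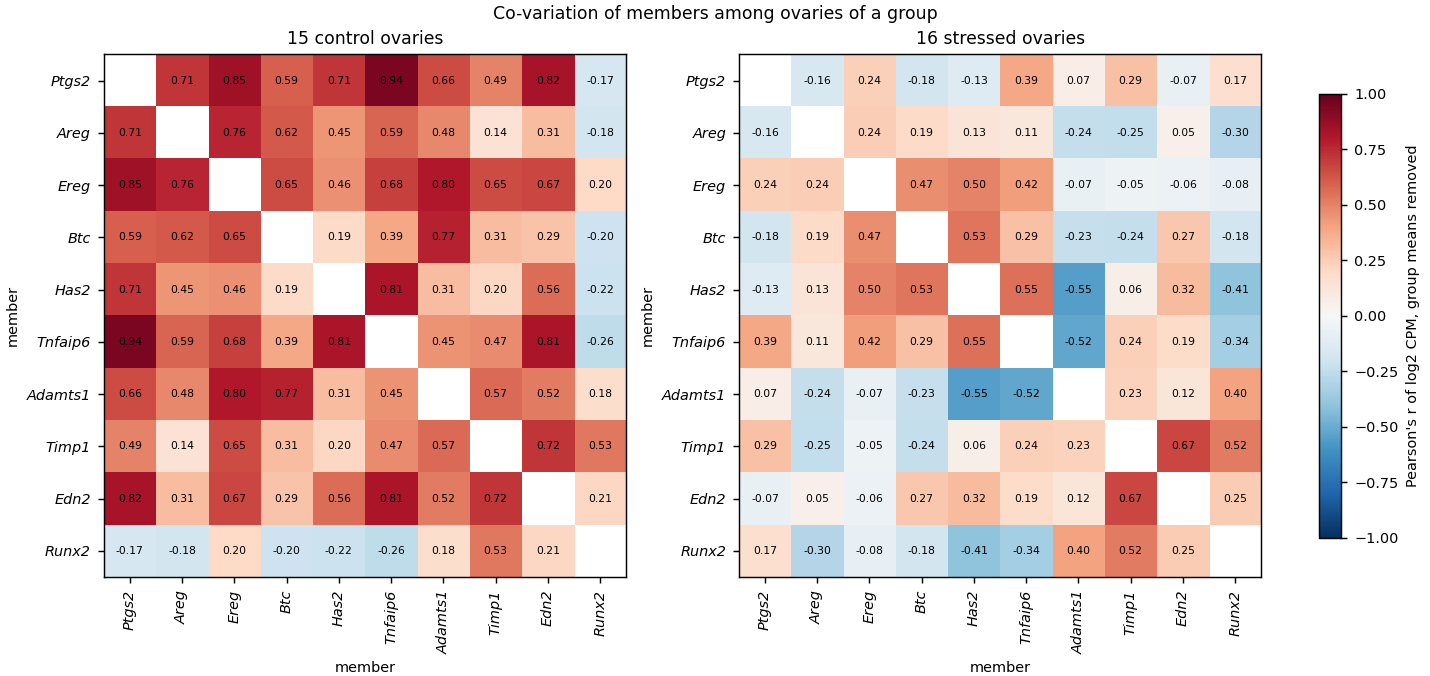
Pearson's r of log2 CPM with group means removed for each pair of members, in 15 control ovaries (left) and 16 stressed ovaries (right). Most cells are red in controls, with 23 of 45 pairs above 0.5, while in stressed ovaries red and blue cells mix, with 4 above 0.5; the Runx2 row is at or below 0.21 in controls except to Timp1, at 0.53.

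Averaged over the members, the deviation from the group mean was 1.35 log2 units in 2M-12W control 4, 0.80 in control 2, -0.63 in control 1 and -1.52 in control 3, the widest span of any group. In 6M-12W it ran from 0.67 in control 1 to -0.66 in control 3. The same ovaries differed in cell type markers: the summed luteal level was highest of the 2M-12W controls in control 3, at 17816 CPM, and lowest in control 4, at 8331 CPM. In these 2 ovaries the 10 granulosa markers were at 4914 and 3123 CPM. The lowest granulosa sum of the 2M-12W controls, 2327 CPM, was in neither of them, so the granulosa sums did not follow the order of the member deviations. Control 1 held 1522 CPM of 6 pituitary hormone transcripts, with Prl at 915 and Gh at 517 CPM, beside 59.2 to 141 CPM in controls 2 to 4. The part of these in the member levels was not tested.

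The genes outside the list whose within-group deviations were most like the members' mean, over 31 ovaries and as a description, were Adamts4 (r = 0.88), Prkg2 (0.86), Rnd3 (0.82), Il1rl2 (0.82) and Tpm4 (0.81). For single members the closest were Adamts4 and B4galt5 to Ptgs2 (0.82 and 0.79), Adamts4 and Il1rl2 to Ereg (0.82 and 0.77), and Ankrd37 and Abi3bp to Areg (0.71 and 0.69). Slc16a10 and Twsg1 were closest to Btc (0.80 and 0.78), Mcmbp and Ddx52 to Has2 (0.80 and 0.78), and Pmepa1 and Adamts4 to Tnfaip6 (0.80 and 0.77). Adamts1 was most like Runx1 and Mmp19 (0.86 and 0.84), Timp1 like Klc1 and Sav1 (0.90 and 0.85), Edn2 like Sav1 and Errfi1 (0.89 and 0.85), and Runx2 like Avpi1 and Sgk1 (0.95 and 0.94). Sav1 was shared by Edn2 and Timp1, and Adamts4 by Ptgs2, Ereg and Tnfaip6. Without the 2 ovaries farthest from the member's median, Adamts4 had r = 0.57 to Ptgs2, 0.67 to Ereg and 0.45 to Tnfaip6. Its rho over the 31 ovaries was 0.59, 0.66 and 0.33. For each of these members the ovaries left out were 2M-12W controls 3 and 4. Sav1 had r = 0.83 to Edn2 and 0.79 to Timp1 without the 2 farthest, and rho = 0.82 to each.

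Genes in a list on the LH surge response changed in both directions. Of 21 tested in a list of 22, 9 were lower and 4 higher in the mean of the 4 sets, with a median fold of -0.37. All genes tested had shares of 11.5% lower and 8.86% higher. Adcyap1, the peptide PACAP that the surge induces, fell by 3.36 (SE 0.47, adjusted p = 2.22e-05). Prkg2, a cGMP-dependent kinase, fell by 1.63 (SE 0.24, adjusted p = 4.41e-05), and Fosl2, an AP-1 subunit, by 0.64 (SE 0.09, adjusted p = 1.97e-05). Among the 4 higher was Nr5a2, which rose by 0.38 (edgeR, adjusted p = 0.00433). In a separate list of 16 immediate early genes, 13 were lower and 0 higher, with a median of -0.76, beside the same shares of all genes. Among the 13 were Btg2 (-0.86 ± 0.13, adjusted p = 6.29e-05), Zfp36 (-0.86 ± 0.14, adjusted p = 0.000111), Egr3 (-1.70 ± 0.28, adjusted p = 0.000135) and Fosb (-2.26 ± 0.40, adjusted p = 0.000281).

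Markers of ovarian cell types were present in every library. The summed level of 10 granulosa markers ran from 2327 to 8691 CPM over all libraries. In the mean of the 4 sets, where 8.86% of all genes tested were called higher and 11.5% lower, 3 of these were higher and 0 lower: Esr2 (0.55 ± 0.12, adjusted p = 0.00243), Nr5a2 (0.38 ± 0.09, adjusted p = 0.00433) and Inha (0.46 ± 0.12, adjusted p = 0.00569). Of 9 oocyte markers 3 were higher and 0 lower, of 7 theca markers 5 higher and 1 lower, of 7 tested of 9 macrophage and neutrophil markers 3 lower and 0 higher, and of 6 endothelium markers 2 lower and 0 higher. Of 5 adipocyte markers 1 was higher. None of the 9 oviduct, 9 surface epithelium and 5 tested pituitary markers was called by edgeR in that comparison. The 9 oviduct markers and the 9 surface epithelium markers were each higher for 6 in 2M-8W, where 3.96% of all genes were. That set holds the ovary rich in Ovgp1. In 2M-12W, the set with the control rich in Prl, 4 of 5 pituitary transcripts were lower, where 4.15% of all genes were. In 2M-8W, controls 1, 2 and 3 had Prl at 0.107, 0.627 and 0 CPM and Gh at 0.107, 0.0964 and 0.182 CPM. Control 4 of that set had 25.4 and 14.3 CPM, and its stressed ovaries 19.2 to 51.2 and 15.5 to 23.0 CPM. None of the 5 pituitary transcripts tested was called in 2M-8W by edgeR. The part of these cells in the member levels was not tested.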

How the data were processed

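RNA of whole ovaries was sequenced in bulk, per the labels' protocols after chloroform extraction, and libraries were made with NEBNext Ultra II RNA reagents. The authors deposited a raw count for each gene and library, and an FPKM value, which also divides by gene length and library size. The sources used here do not name an aligner, a counting program, an annotation or a strand setting. FPKM values served only to compare levels between genes.

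The 31 ovary libraries of 8 groups were fitted together with edgeR 4.0.16 in R 4.3.3 (filterByExpr, TMM factors, quasi-likelihood F test, biological coefficient of variation 0.207). Adjusted p-values are Benjamini-Hochberg over all 17766 genes. Deviations and correlations used log2 CPM with a prior count of 2; the spread was tested with limma 3.58.1 and pairs of members with 100000 permutations within groups. Alternatives used DESeq2 1.42.0, other scaling, no filter, a replicate block, only the groups of a set, and left-out libraries. The scripts were tested on simulated data. Of 45 pairs of libraries within groups, 0 were identical, and the closest differed with a chi-square over its degrees of freedom of 9.83.

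The members, lists and rules for named genes were chosen with earlier results of these data known. Every member is named. Of each list, counts and the 2 to 4 genes with the smallest p in the mean of the 4 sets are given, then the 5 genes most like the members' mean and 2 per member. The floor of a library with 0 counts is 3 counts, which covers counting error only. The ± values are standard errors of the fits, which also take in the spread between libraries. The series text pairs ages and durations in another way than the titles, which hold all 4 combinations and were followed.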

Additional observations from a re-analysis of the deposited data

Results flagged for a closer look

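In 7 of 70 groups of 4 ovaries, 1 library lay farther from the rest than Dixon's limit allows, which chance gives in about 1 group in 20. Ptgs2 in 6M-12W stressed ovary 2 was at 0.747 CPM, and Edn2 in 6M-8W stressed ovary 3 at 4.55 CPM, each above the others of its group. Areg in 2M-8W stressed ovary 1 was at 1.80 CPM and Has2 in 2M-12W stressed ovary 4 at 0.818 CPM, both high. Tnfaip6 in 6M-8W stressed ovary 1 was low at 0.973 CPM. Adamts1 in 2M-8W control 2 was at 335 CPM and Runx2 in 2M-12W stressed ovary 1 at 134 CPM, both high. The stress effect of 1 member was called different between durations, where 4.71% of all genes were. That of Ptgs2 was lower by 2.89 on the log2 scale after 12 weeks (difference -2.89, edgeR, adjusted p = 0.0440). This call held in 12 of 36 alternatives.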

How the results depend on the processing

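The count of members called lower was 8 in the mean of the 4 sets and 7 to 9 with each library left out in turn. The ranges over left-out libraries were 1 to 3 for 2M-8W, 6 to 8 for 2M-12W, 0 to 1 for 6M-8W, 2 to 6 for 6M-12W, 0 to 2 for the duration difference, 0 for the age difference and for age in controls, 0 to 2 for the spread and 2 to 6 for co-varying pairs. With DESeq2 the counts were 3 in 2M-8W, 1 in 6M-8W and 2 for the duration difference. With only the groups of a set in the fit they were 0 in both 2-month sets and 1 in 6M-8W, and without the filter 0 for the duration difference. Without 2M-12W controls 2 and 4, an alternative chosen after seeing the data, they were 0 in 2M-12W, 3 in 2M-8W, 1 in 6M-8W and 0 for the duration difference, and 1 pair co-varied. The spread test called 0 members from group medians and 0 from log2 SDs, also added later. With group means not removed, 35 pairs passed, since differences between groups then enter. The fold of Areg in 2M-8W turned to -0.74 without stressed ovary 1 and ranged up to 1.12 with other libraries left out, and that of Btc to 0.35 in 2M-12W and 0.0732 in the mean without controls 2 and 4. The cause of these changes was not tested. The replicate numbers of the titles did not pair the ovaries, with correlations of -0.24 to 0.20 between same-numbered ovaries of a set. A replicate block gave 8 members in the mean, 7 in 2M-12W, 1 in 2M-8W, 5 in 6M-12W and 0 in 6M-8W and 1 for the duration difference. Over all genes, calls numbered 1113 in 2M-8W (1699 by DESeq2, 2 from its own groups), 1197 in 2M-12W (0 from its own groups, 31 without controls 2 and 4) and 199 in 6M-8W (598 by DESeq2, 84 without the filter, 99 from its own groups, 347 without controls 2 and 4). They were 3615 in the mean (2332 without those controls), 836 for the duration difference (1546 by DESeq2, 450 without the filter, 377 without those controls), 0 for the age difference (21 by DESeq2) and 51 for age in controls (153 by DESeq2, 88 without those controls). With single libraries left out they ranged from 36 to 1673 in 2M-8W, 332 to 1724 in 2M-12W, 4 to 336 in 6M-8W, 550 to 2266 in 6M-12W, 2748 to 3997 in the mean, 299 to 1597 for the duration difference and 24 to 102 for age in controls, and stayed at 0 for the age difference. Depth limits Areg and Has2, with a median of 9 and 8 counts in controls.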
